A study of Mus musculus with 15 samples.

Results

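The spleens of mice exposed to whole-body radiation together with a skin burn (radiation combined injury, RCI) were compared with those of Sham mice over all endogenous genes of the nCounter Mouse Immunology Panel, an assay in which barcoded probes bind each mRNA and are counted without amplification. The comparison rests on 6 of the 15 samples of the series, 3 labelled RCI and 3 labelled Spleen Sham, and on 547 endogenous genes, of which 426 averaged 20 counts or more across the series and were tested. According to the methods, all mice were female C57BL/6J of 6 to 8 weeks of age. RCI mice were anaesthetised, shaved, given morphine and burned with a heated copper rod to a full-thickness contact burn of 20% of the total body surface, then exposed to 9 Gy from a caesium source within the hour. Under the burn model the methods have Sham mice share the handling without burn or radiation, which would make anaesthesia and morphine common to both groups. The labels do not say whether the Sham samples used here came from that procedure. RCI mice received the vehicle of the vesicle treatment, PBS per the labels and saline per the study's text, 72 hours after injury, and spleens were taken 48 hours later. The labels give no injury or treatment for Sham, and the study's text has saline for them too. RNA came from spleen cell suspensions after lysis of red blood cells. The Sham samples carried the markers of spleen, with *Cd79b* and *Cd3e* above 1000 scaled counts in each.

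The spleen filters blood and houses B cell follicles, T cell zones and a red pulp rich in macrophages that clear spent red cells. Resting lymphocytes are among the most radiation-sensitive cells of the body and die by a p53-dependent route, whereas mature tissue macrophages divide little and survive doses that clear lymphocytes. A burn adds dead tissue and a systemic release of inflammatory mediators, to which splenic myeloid cells respond. In a suspension of spleen cells, fewer cells of a type and less RNA per cell cannot be told apart, and a rise relative to the reference genes can likewise reflect the loss of other cells.

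Total counts were 387724, 294960 and 484525 in RCI 1, 2 and 3 and 471966, 179472 and 509621 in Sham 1, 2 and 3. The assay thus recorded the fewest barcodes in Sham 2, in which 163 of the endogenous genes had under 20 counts, against 107 to 140 in the other 5 samples. Values below are raw counts divided by a size factor from the geometric mean of the 14 reference genes of the panel, and are called scaled counts. A pair of samples stood apart. Across the tested genes the correlation of log2 scaled counts was 0.988 between RCI 1 and RCI 2 but 0.878 and 0.886 between these and RCI 3, and 34 genes were over 2-fold higher and 88 over 2-fold lower in RCI 3 than in the mean of the other RCI samples. Sham 2 had a size factor of 0.408 from the reference genes and of 0.731 by TMM (the trimmed mean of M-values, a scaling over the tested genes), and 118 genes were over 2-fold above the mean of Sham 1 and 3 in it, against 24 below. For RCI 3 the size factors were 1.72 and 1.33, for RCI 1 1.12 and 1.14, and for RCI 2 0.834 and 0.889. Scaled counts from the reference genes are thus lower in RCI 3, and higher in Sham 2, than TMM would give. Where leaving out a sample ended the call of a named gene or moved its fold change by over 1.5-fold, the value without that sample is given once, with the counts or fold change of the gene. The labels do not say that the 3 samples of a group came from separate mice, so the p-values below measure the spread between these samples, which may be technical.

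RCI spleens differed from Sham spleens in most of the genes on the panel. The edgeR quasi-likelihood test called 296 of the 426 genes at an adjusted p under 0.05 (69.5%), of which 113 were higher in RCI (26.5%) and 183 lower (43%). The size of the changes was large, with 60 genes over 4-fold higher and 82 over 4-fold lower, and 9 and 14 over 16-fold. Scaled counts of the RCI and Sham samples did not overlap in 275 genes (64.6%), 267 of them among the calls. To describe them, 300 genes of the panel were placed in 22 lists by cell type or pathway, of which 258 were tested. The counts for each list are to be read against the shares of all tested genes that were called, 26.5% higher and 43% lower, and against the median log2 fold change (log2FC) of all tested genes, -0.53.

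**Figure D1:**
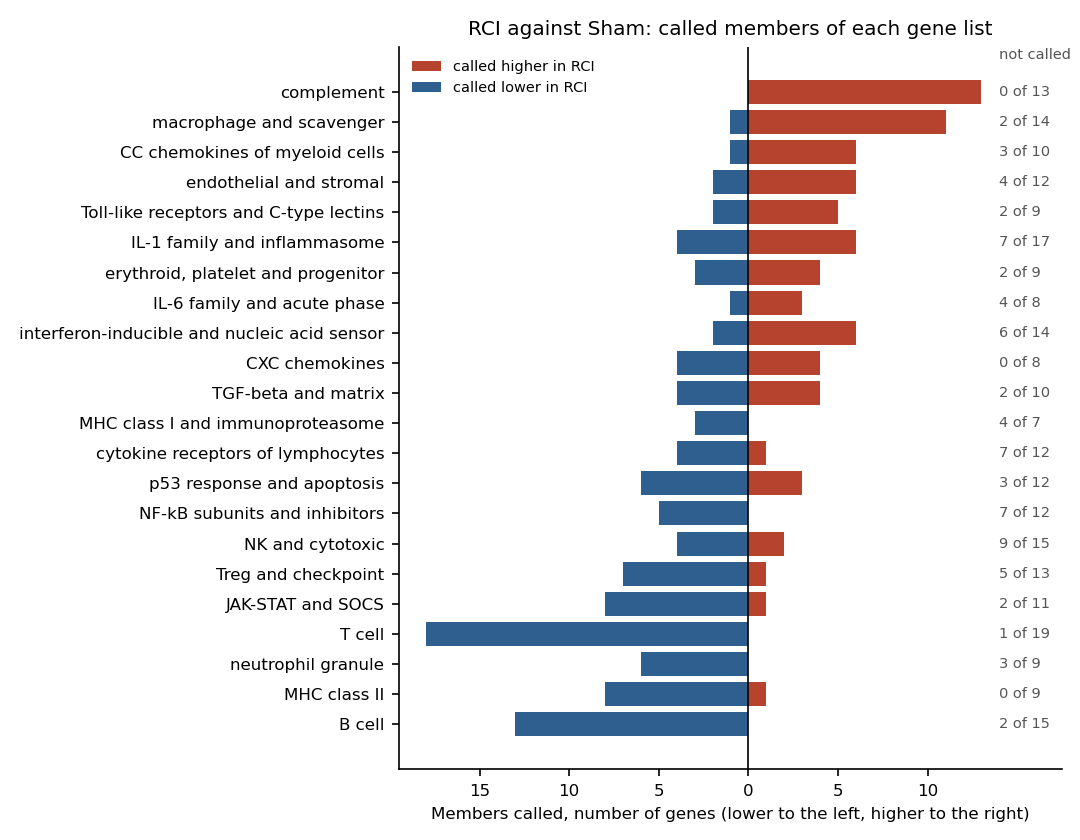
Number of tested genes in each list that were called higher (right, red) or lower (left, blue) in RCI than in Sham, with the number not called in grey, lists ordered by their median log2FC. The complement list has 13 of 13 members to the right, and the T cell list has 18 of 19 and the B cell list 13 of 15 to the left.

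The split of the calls into higher and lower depended on the scaling. With TMM there were 300 calls, 151 higher and 149 lower (50.3% of the calls higher, against 38.2% with the reference genes), and the median of all tested genes moved by 0.54 to 0.01. Without Sham 2 there were 293 calls, 124 higher and 169 lower, with a median of -0.16, and 16 of the 296 calls were lost. Each gene that was called with the reference genes kept its sign with TMM, and 262 of the 296 were called again in the same direction. The reference genes themselves moved apart between the groups, from *Tubb5* at -2.53 to *G6pdx* at 3.07 on the log2 scale. Scaled counts of RCI and Sham overlapped for *Ppia*, *Sdha*, *Eef1g* and *Oaz1* only. Without overlap, *Tubb5*, *Polr1b*, *Polr2a*, *Tbp* and *Rpl19* were lower in RCI, and *Hprt*, *Alas1*, *Gusb*, *Gapdh* and *G6pdx* were higher. Called without RCI 3 in the same direction were 276 of the 296, and 247 (106 higher and 141 lower) were called with either scaling, both with and without RCI 3. A set of 228 genes, 92 higher and 136 lower, was called in the same direction under each of the 18 alternatives tried.

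**Figure D2:**
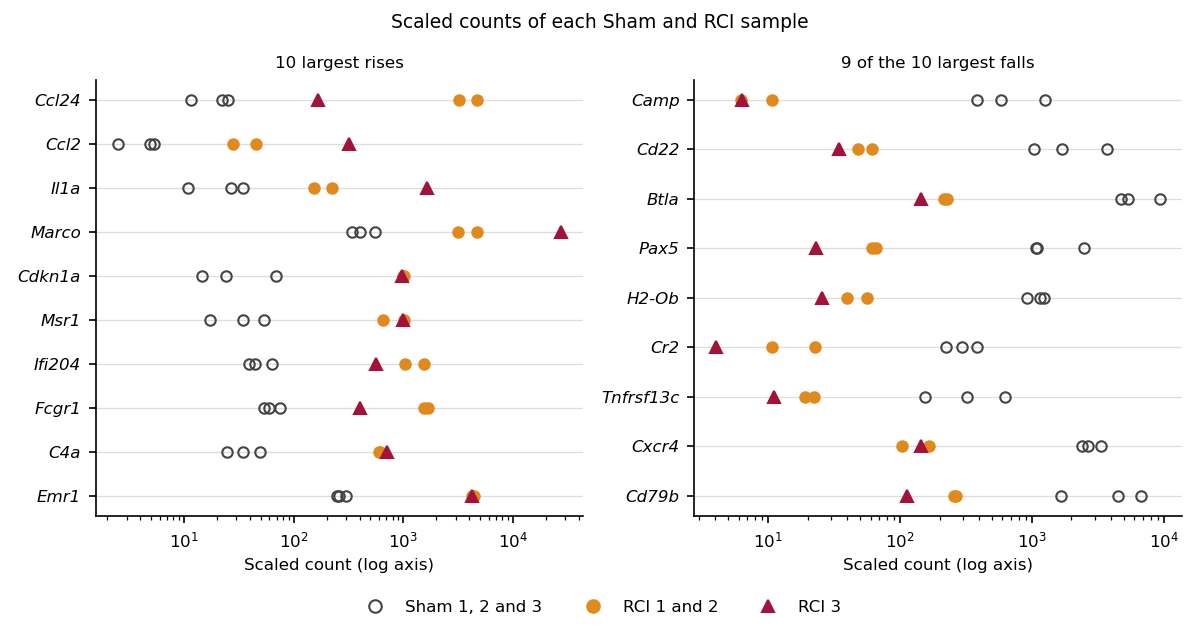
Scaled counts (log axis) in each sample for the 10 largest rises and 9 of the 10 largest falls. These genes were called with the reference genes, with TMM, and with the reference genes without RCI 3, with no overlap between the groups. RCI 3 (triangle) lies apart from RCI 1 and 2 (filled circles) for *Ccl24*, *Ccl2*, *Il1a* and *Marco* and close to them for *Cdkn1a*, *C4a* and *Emr1*.

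B cell genes fell further than those of any other list by their median. Of the 15 tested, 13 were lower and 2 were not called, with a median log2FC of -3.86 (-3.50 with TMM, -3.58 without RCI 3). *Cd22*, an inhibitory lectin of B cells, had 1701, 3748 and 1039.8 scaled counts in Sham 1, 2 and 3 and 48.4, 61.1 and 34.4 in RCI 1, 2 and 3 (log2FC -5.51 ± 0.50, SE, edgeR adjusted p 6.7e-07). Each RCI sample lay far below the lowest Sham sample. *Pax5*, the transcription factor that holds B cell identity, had 1103, 2472 and 1070.5 in Sham and 66.4, 61.1 and 23.3 in RCI, and *Cr2*, the complement receptor that marks follicular and marginal zone B cells, had 385, 296 and 223 in Sham and 10.8, 22.8 and 4.08 in RCI. Their log2FC values were -4.96 ± 0.61 and -4.67 ± 0.56, with edgeR adjusted p-values of 8.7e-06 and 7.5e-06. For each of these 3 genes RCI 3 was the lowest of the 6 samples. The signalling chains *Cd79a* (-3.96) and *Cd79b* (-4.35), the survival receptor *Tnfrsf13c* (-4.41), which binds the cytokine BAFF, and the membrane protein *Ms4a1*, or CD20 (-3.86), fell alongside. The log2FC was -4.85 for *Cd22* without Sham 2, -5.38 for *Cr2* without RCI 2 and -3.80 for *Tnfrsf13c* without Sham 1, each still called.

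Within the list the falls were graded. *Btk*, a kinase of the receptor that myeloid cells also express, had 745, 608 and 772 scaled counts in Sham and 386, 427 and 284 in RCI, a log2FC of -0.96 ± 0.19 (edgeR adjusted p 0.00057), and *Blnk*, its adaptor, fell by 1.65. *Pou2f2*, a transcription factor of B cells and other leukocytes, was at -0.27 ± 0.22 (edgeR adjusted p 0.27). *Ly86*, which encodes the partner of the receptor RP105 and is shared with macrophages, had 739, 389.5 and 1162 in Sham and 1664, 1616 and 495 in RCI, and was called higher without RCI 3 (log2FC 1.10, edgeR adjusted p 0.022) but not with it (0.71, 0.17). The same 13 genes were called lower without Sham 2.

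T cell genes were lower too, with a median nearer to 0. Of 19 tested, 18 fell and 1 was not called, with a median of -2.37 (-1.74 with TMM, -2.19 without RCI 3), and the 18 were called under each of these settings. The member not called, *Cd3eap* (-0.32 ± 0.37), resembles *Cd3e* by name, but its product is a subunit of RNA polymerase I. *Cd3d*, a chain of the T cell receptor complex, had 1860.4, 2587 and 1646 scaled counts in Sham and 520.2, 548 and 373 in RCI, 4.23-fold lower (edgeR adjusted p 9.2e-06). *Cd3e*, its partner chain, had 1355, 1737 and 1104 in Sham and 418, 367 and 288 in RCI, 3.91-fold lower (edgeR adjusted p 6.6e-06). The groups did not overlap for either chain. *Cd8a*, a coreceptor of cytotoxic T cells, had 548, 1340.1 and 449 in Sham and 55.6, 49.1 and 30.9 in RCI (log2FC -4.11 ± 0.44, edgeR adjusted p 2.6e-06), and its partner chain *Cd8b1* fell by 3.78. *Cd4*, the coreceptor of helper T cells, had 768, 1007 and 561 in Sham and 419.7, 476 and 198 in RCI (log2FC -1.09 ± 0.29, edgeR adjusted p 0.0037). *Cd4* is also transcribed in some macrophages and dendritic cells, and whether the fall of *Cd8a* differed from that of *Cd4* was not tested. *Il7r*, the receptor for the survival cytokine of naive T cells, had 3304, 5899.6 and 3688 in Sham and 274, 313 and 245 in RCI, a fall of 15.5-fold (edgeR adjusted p 3.3e-07). Markers of naive and recirculating T cells fell with it, *Lef1* by 2.95, *Tcf7* by 2.71 and the homing receptor *Ccr7* by 2.57 on the log2 scale. Without Sham 2 the log2FC was -3.47 for *Cd8a* and -2.34 for *Lef1*, and the call of *Cd4* ended when the 6 samples were fitted alone (edgeR adjusted p 0.053).

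Genes of regulatory T cells and of inhibitory checkpoints divided. Of 13 tested, 7 were lower, 1 was higher and 5 were not called (median -1.12). *Btla*, an inhibitory receptor of B and T cells, had 4780.3, 5395 and 9344 scaled counts in Sham and 214, 227 and 145 in RCI (log2FC -5.06 ± 0.32, edgeR adjusted p 3.3e-08), and *Ctla4* had 241, 328 and 597 in Sham and 58.3, 67.1 and 45.4 in RCI (log2FC -2.78 ± 0.32, edgeR adjusted p 5.5e-06). *Foxp3*, the transcription factor that defines regulatory T cells, had 100.2, 189 and 89.1 in Sham and 91.5, 86.3 and 64.1 in RCI and was not called (-0.62 ± 0.37, edgeR adjusted p 0.14), and *Ikzf2* (-0.64) and *Il2ra* (0.32), of the same cells, were not called either. Sham and RCI values overlapped for all 3. The member that rose was *Entpd1*, or CD39, an ectoenzyme of regulatory T cells and macrophages that breaks down extracellular ATP, with 319.7, 257 and 345 in Sham and 1359, 1650.4 and 275 in RCI (log2FC 1.83 ± 0.50, edgeR adjusted p 0.0046). RCI 3 lay within the Sham range for it.

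Signalling genes that lymphocytes use heavily followed. In the JAK-STAT list 8 of 11 were lower, 1 was higher and 2 were not called (median -1.22). *Stat4*, which relays interleukin-12, fell by 2.25, the kinase *Jak1* by 1.77 and *Stat5a*, which relays interleukin-2 and interleukin-7, by 1.83 on the log2 scale, each with edgeR adjusted p-values of at most 8.5e-05. *Socs1*, the feedback inhibitor of these kinases, had 142, 238 and 170.5 scaled counts in Sham and 274, 274 and 303 in RCI and rose (log2FC 0.64 ± 0.22, edgeR adjusted p 0.015), while *Cish*, another of the family, was at 0.13 ± 0.31 and not called. Among cytokine receptors of lymphocytes and their ligands, 4 of 12 were lower (*Il17ra*, *Il2rb*, *Il2rg* and *Il4ra*), 7 were not called and 1 was higher. The gene that rose was *Il15*, a cytokine that sustains NK and memory CD8 T cells and is made by myeloid and stromal cells. It had 15.7, 24.5 and 14.6 in Sham and 119, 128 and 24.5 in RCI (log2FC 2.36 ± 0.51, edgeR adjusted p 0.00093), and RCI 3 was at the level of Sham 2. Low in Sham, *Il15* passed the filter, a mean over all samples, through the injured groups. The members called lower numbered 1 with TMM and 3 without RCI 3, and those called higher numbered 3 in each. The call of *Socs1* ended without Sham 1 (edgeR adjusted p 0.067), with 7 reference genes (0.13) and in the 6 samples alone (0.12), and that of *Il4ra* without RCI 3 (0.052), without Sham 2 (0.071) and in the 6 samples alone (0.051), where *Il2rg* lost its call as well (0.057).

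NK and cytotoxic genes were mixed, and they moved with Sham 2. Of 15 tested, 4 were lower (*Klrd1*, *Eomes*, *Prf1* and *Ccl5*), 2 were higher (*Cd244* and *Gzmb*) and 9 were not called (median -0.96, or -0.35 with TMM). *Klrd1*, the CD94 chain of NK receptors, had 756, 2759 and 1044 scaled counts in Sham and 154, 143 and 94.9 in RCI (log2FC -3.54 ± 0.56, edgeR adjusted p 7.5e-05). The summed scaled counts of the list were 3569, 10721 and 3719 in Sham 1, 2 and 3 and 2984, 2874 and 2396 in RCI 1, 2 and 3, so Sham 2 stood well above its group. Without Sham 2 the log2FC of *Klrd1* was -2.79 (edgeR adjusted p 0.00024) and that of the granzyme gene *Gzma*, which was not called, moved from -0.74 to 0.22. *Cd244*, an activating and inhibitory receptor of NK cells that some myeloid cells carry, had 87.8, 299 and 83.7 in Sham and 687, 819 and 992 in RCI, 5.50-fold higher (log2FC 2.46, edgeR adjusted p 0.00014, and 3.28 without Sham 2). The call of the granzyme gene *Gzmb* (edgeR adjusted p 0.036) ended without RCI 3 (0.14), Sham 1 (0.14) or Sham 3 (0.13), with 7 reference genes (0.083) and in the 6 samples alone (0.074), and its log2FC of 1.36 was 2.06 without Sham 2. The log2FC of *Eomes* moved from -2.50 to -3.12 without RCI 1 and -1.83 without Sham 2 and that of *Prf1* from -1.86 to -1.24 without Sham 2, and *Eomes* and *Prf1* (perforin) lost their calls when RCI 3 and Sham 2 were both left out, at edgeR adjusted p-values of 0.073 and 0.091.

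Most neutrophil genes were lower, with a wide spread in Sham. Of 9 tested, 6 were lower and 3 were not called (median -2.45), and the summed scaled counts of the list were 9522, 42953 and 26718 in Sham 1, 2 and 3 and 3880, 3789 and 3629 in RCI 1, 2 and 3. *Camp*, which encodes the granule peptide cathelicidin, had 382, 586 and 1266 scaled counts in Sham and 6.28, 10.8 and 6.41 in RCI. The log2FC was -6.60 ± 0.95 (edgeR adjusted p 3.4e-05), but RCI samples had 7 to 11 raw counts, and with raw counts under 20 set to 20 it was -5.42. *S100a8*, a subunit of calprotectin, had 3688, 18108 and 10365 in Sham and 838, 917 and 576 in RCI (log2FC -3.79 ± 0.73, edgeR adjusted p 0.00040). *S100a9*, the other subunit, had 2878, 19896 and 12357 in Sham and 798, 717 and 409 in RCI (log2FC -4.19 ± 0.81, edgeR adjusted p 0.00040). Sham 1 was the lowest Sham sample and Sham 2 the highest for these subunits. *Csf3r*, the receptor of the neutrophil growth factor G-CSF, had 112, 1188 and 189 in Sham and 111, 139 and 309.9 in RCI and was not called. It stood high in Sham 2 among the Sham samples and in RCI 3 among the RCI samples, and its log2FC was -1.38 with all samples, -1.96 without RCI 3 (edgeR adjusted p 0.038) and 0.32 without Sham 2 (0.56). The part of the high neutrophil and NK list sums of Sham 2 in these results was not tested. *Ltf* (lactoferrin), a neutrophil granule gene, was below the filter, with 11 to 25 raw counts in Sham and 10 to 20 in RCI. The log2FC of *Camp* was -5.97 without Sham 3, and without Sham 2 that of *S100a8* was -3.18 and that of *S100a9* -3.57, each still called.

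Genes of class II antigen presentation fell, with 1 exception. Class II molecules display peptides to CD4 T cells on B cells, dendritic cells and macrophages, and their genes are switched on together by the coactivator CIITA through conserved promoter elements known as the X and Y boxes. Of 9 tested genes 8 were lower and *Ctss* was higher (median -2.96). *Ciita* itself had 987, 635 and 847 scaled counts in Sham and 82.5, 43.1 and 33.8 in RCI, 15.5-fold lower (log2FC -3.96 ± 0.35, edgeR adjusted p 5.6e-07). *H2-Aa* and *H2-Eb1*, the α chain of I-A and the β chain of I-E, are given with *H2-Ob*, a chain of the peptide-loading modulator H2-O that B cells favour. Of the class II list genes looked up, 6 had a promoter window in the RefSeq table, and these are the 3 that hold the same pair of short motifs. *Cd74* was left out of the search beforehand, so its promoter was not examined. The stretches are the 120 bases before the annotated start, written along the transcript (GRCm38.p6), and capitals mark GCAAC, a run within the X box, and ATTGG, the core of the Y box.
H2-Aa, chr17:34287824-34287943, minus strand: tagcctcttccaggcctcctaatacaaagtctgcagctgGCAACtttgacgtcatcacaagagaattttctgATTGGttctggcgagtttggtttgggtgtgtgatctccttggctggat
H2-Eb1, chr17:34305747-34305866, plus strand: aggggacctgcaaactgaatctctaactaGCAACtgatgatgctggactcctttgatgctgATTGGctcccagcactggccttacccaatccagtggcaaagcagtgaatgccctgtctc
H2-Ob, chr17:34238785-34238904, plus strand: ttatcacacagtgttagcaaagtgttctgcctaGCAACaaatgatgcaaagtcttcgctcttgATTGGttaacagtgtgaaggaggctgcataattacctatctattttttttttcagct
Here GCAAC begins 81, 91 and 87 bases before the start of *H2-Aa*, *H2-Eb1* and *H2-Ob*, and ATTGG begins 48, 59 and 57 bases before it, with 28, 27 and 25 bases in between. Of 32851 windows of 250 bases before a start in the table, searched on both strands, 29.9% held GCAAC, 33.8% held ATTGG, and 0.843% held GCAAC followed by ATTGG 20 to 40 bases on. *Ctss*, which encodes the lysosomal protease cathepsin S, held neither the pair nor ATTGG in its window. *H2-DMb2* held ATTGG without the pair, and *H2-DMa* held ATTGG in 1 of 2 windows and the pair in 0. GCAAC alone was not counted for single genes. A match of letters is a description and not evidence of binding.

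*H2-Ob* had 1163, 916 and 1237 scaled counts in Sham and 39.5, 56.3 and 25.6 in RCI (log2FC -4.79 ± 0.47, edgeR adjusted p 1.3e-06). *H2-Aa* had 22434, 7169 and 19854 in Sham and 3601, 1819 and 954 in RCI (log2FC -2.96 ± 0.48, edgeR adjusted p 0.00010), and *H2-Eb1* had 5726, 2587 and 3681 in Sham and 1445, 711 and 395 in RCI (log2FC -2.23 ± 0.40, edgeR adjusted p 0.00022). For both chains RCI 3 was the lowest RCI sample and Sham 2 the lowest Sham sample, and the groups did not overlap. *H2-DMb2* (-4.05), *Cd74*, the invariant chain (-3.0), and *H2-Ab1* (-2.30) fell as well. *H2-DMa* had 1212, 764 and 1307 in Sham and 865, 621 and 180.0 in RCI, and its call (edgeR adjusted p 0.046) was lost without RCI 3 (0.075) and with TMM (0.14). *Ctss* went the other way, with 2543, 1281 and 2809.8 in Sham and 10869, 10709 and 3814 in RCI (log2FC 1.93 ± 0.45, edgeR adjusted p 0.0016). Of 7 class I genes, 3 were lower, a share near that of all tested genes (*H2-K1*, *H2-Q10* and the peptide transporter *Tap1*) and 4 were not called (median -0.43). *B2m*, the shared light chain of class I molecules, had 27519, 20222 and 26353 in Sham and 33113, 32335 and 21477 in RCI, a log2FC of 0.23 ± 0.27 (edgeR adjusted p 0.44). Without RCI 1 the log2FC was -3.57 for *H2-Aa*, -2.86 for *H2-Eb1*, -3.61 for *Cd74* and -2.93 for *H2-Ab1*, and that of *H2-Q10* moved from -3.85 to -2.61 without Sham 2. *H2-DMa* also lost its call without RCI 2 (edgeR adjusted p 0.068), Sham 1 (0.10) or Sham 3 (0.12) and in the 6 samples alone (0.15).

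Macrophage and scavenger genes rose. Of 14 tested, 11 were higher, 1 was lower and 2 were not called (median 2.49, 2.89 with TMM and 2.68 without RCI 3, when 13 were higher). *Emr1*, now named *Adgre1*, encodes F4/80, the antigen that marks red pulp macrophages. It had 261, 249.9 and 303 scaled counts in Sham and 4454, 4241 and 4257 in RCI, 15.9-fold higher (log2FC 3.99 ± 0.37, edgeR adjusted p 6.7e-07), and was among the genes with the least spread within both groups. *Msr1*, a scavenger receptor for modified lipoproteins, had 34.8, 17.1 and 53.8 in Sham and 656, 1010.4 and 998 in RCI (log2FC 4.57 ± 0.48, edgeR adjusted p 2.3e-06). *Fcgr1*, the high-affinity receptor for IgG, had 75.4, 53.9 and 59.1 in Sham and 1554, 1667 and 405 in RCI (log2FC 4.25 ± 0.52, edgeR adjusted p 8.0e-06), with RCI 3 3.98-fold below the mean of RCI 1 and 2. *Marco*, a scavenger receptor that marginal zone macrophages carry and that bacterial products induce, had 341, 404 and 551 in Sham and 3187, 4666 and 27539 in RCI, where RCI 3 was 7.01-fold above the mean of RCI 1 and 2. Its log2FC was 4.77 ± 0.74 (edgeR adjusted p 6.6e-05) and 3.18 without RCI 3 (1.8e-05). *Csf1r*, the receptor of the macrophage growth factor, rose 3.00-fold, and the adaptors *Fcer1g* and *Tyrobp*, through which activating myeloid receptors signal, rose 7.88-fold and 4.15-fold. *Pparg*, a lipid-sensing nuclear receptor of red pulp macrophages, had 33.1, 36.7 and 34.6 in Sham and 378, 391 and 189 in RCI (log2FC 3.20 ± 0.30, edgeR adjusted p 8.0e-07).

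The member that fell was *Fcgr2b*, the inhibitory IgG receptor, which B cells express strongly. It had 770.3, 767 and 1226 scaled counts in Sham and 235, 374 and 195 in RCI (log2FC -1.79 ± 0.33, edgeR adjusted p 0.00030), opposite to the activating receptors *Fcgr1*, *Fcgr4* (2.76) and *Fcgr3* (2.45), the last of which is in no list and was added for this comparison after its value was seen. *Cd163*, the haemoglobin scavenger receptor, had 427, 203 and 390.1 in Sham and 737, 998 and 93.2 in RCI and was not called with all samples (0.83 ± 0.62, edgeR adjusted p 0.24), but was without RCI 3 (1.34, 0.011).

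Each of the 13 tested complement genes was higher in RCI, with either scaling and with and without RCI 3 or Sham 2 (median 2.83). Complement is a set of plasma proteins that tag and lyse targets, and although the liver makes most of it, macrophages make C1q, properdin and several of the proteases. The list of 22 on the panel also held 9 genes below the filter, most of them liver products of the terminal and lectin pathways. The filter takes a mean over all samples, most of them from injured mice, so genes low in Sham, such as *C1ra* and *C1s*, passed through the injured groups, and the 13 of 13 is in part set by it. With no filter 14 of the 22 were called higher, and the 8 not called were *C7*, *C8a*, *C8b*, *C8g*, *C9*, *Masp1*, *Masp2* and *Mbl2*. *C1qa*, of the recognition unit of the classical pathway, had 1317, 612 and 1515 scaled counts in Sham and 7939.7, 7664 and 2060.1 in RCI, 5.12-fold higher (edgeR adjusted p 0.00093). *C1qb*, of the same unit, had 1329, 666 and 2159 in Sham and 13723, 13774 and 4778 in RCI, 7.75-fold higher (edgeR adjusted p 0.00013). RCI 3 was the lowest RCI sample for both chains. The proteases *C1ra* and *C1s* rose 8.42-fold and 9.79-fold from 4 to 23 raw counts in Sham, and with raw counts under 20 set to 20 their log2FC values were 2.28 and 2.30. *C4a*, which follows C1 in the cascade and whose near-identical copy *C4b* leaves the probe's target uncertain, had 34.8, 24.5 and 49.1 in Sham and 599, 609 and 712 in RCI (log2FC 4.10 ± 0.34, edgeR adjusted p 4.2e-07). All RCI samples lay close together for it.

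The central component and the alternative pathway split the RCI samples. *C3* had 147, 162 and 216 scaled counts in Sham and 486, 588 and 1871 in RCI, and its partner *Cfb*, or factor B, had 22.4, 26.9 and 48.4 in Sham and 171, 171 and 1052 in RCI, so RCI 3 was the highest in both. The log2FC of *C3* was 2.49 ± 0.50 (edgeR adjusted p 0.00056) and 1.61 without RCI 3, and that of *Cfb* was 3.81 ± 0.63 (0.00012) and 2.36. *Cfp*, properdin, which stabilises the alternative convertase, had 1049, 514 and 1190.3 in Sham and 7364, 7691 and 4603 in RCI (log2FC 2.83 ± 0.41, edgeR adjusted p 3.4e-05), and *C6*, a component of the membrane attack complex, had 299, 159 and 325 in Sham and 1896, 2011 and 253 in RCI, with RCI 3 inside the Sham range. *Serping1*, the C1 inhibitor, rose along with the activators (log2FC 2.37 ± 0.54, edgeR adjusted p 0.0012). *Cd55*, the decay-accelerating factor that protects cells from complement, is in no list and was added after its values were seen. It had 623, 1632 and 707 in Sham and 205, 235 and 1333 in RCI and was not called (edgeR adjusted p 0.29).

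Among CC chemokines of myeloid cells and their receptors 6 of 10 tested were higher, 1 was lower and 3 were not called (median 1.53). Genes low in Sham, such as *Ccl2*, passed the filter through the injured groups, so the count of rises is in part set by it. Of the members below the filter, *Ccl7* and *Ccl8* were called higher with no filter, and *Ccl4* and *Ccl11* were not called. *Ccl24*, or eotaxin-2, a macrophage product that attracts eosinophils, had the largest rise of the panel. It had 11.6, 22 and 25.3 scaled counts in Sham and 3209.8, 4659 and 166 in RCI, a log2FC of 7.10 ± 0.99 (edgeR adjusted p 2.7e-05), or 6.56 with raw counts under 20 set to 20. RCI 3, though lowest, was above each Sham sample. *Ccr3*, the eotaxin receptor, is in no list and was added after its values were seen, with 146, 58.8 and 53.8 in Sham and 1708, 1704 and 167 in RCI (log2FC 3.77 ± 0.74, edgeR adjusted p 0.00043). *Ccl2*, the monocyte attractant MCP-1, went the other way among the RCI samples, with 2.48, 4.90 and 5.38 in Sham and 27.8, 45.5 and 322 in RCI. Its raw counts in Sham were 2 to 7, and the log2FC of 4.97 ± 0.95 (edgeR adjusted p 0.00038) fell to 2.42 with raw counts under 20 set to 20 and to 3.10 without RCI 3 (0.00075). *Ccl12*, a relative of *Ccl2*, had 8.28, 36.7 and 9.98 in Sham and 26.9, 64.7 and 287 in RCI (log2FC 3.0 ± 0.78, edgeR adjusted p 0.0034), and Sham 2 lay above RCI 1. *Ccl9* had 87, 105 and 223 in Sham and 232, 398 and 896 in RCI, and *Ccl6* had 114, 321 and 188 in Sham and 385, 678 and 222 in RCI. Both were called (1.87 and 1.06, edgeR adjusted p 0.0041 and 0.035), *Ccl6* with overlap between the groups. *Ccr2*, the receptor of *Ccl2* on monocytes, had 123, 338 and 80.6 in Sham and 86.1, 70.7 and 51.8 in RCI. It was called lower (-1.35, edgeR adjusted p 0.018) but not without Sham 2 (-0.55, 0.19) or without RCI 3 (-1.16, 0.063). Without RCI 3 the log2FC was 1.53 for *Ccl12* (edgeR adjusted p 0.034) and 1.17 for *Ccl9* (0.031). Without Sham 2 it was 3.79 for *Ccl12*, without RCI 2 6.43 for *Ccl24* and without Sham 1 4.41 for *Ccr3*. The call of *Ccl6* ended without RCI 2 (edgeR adjusted p 0.23), Sham 1 (0.13) or Sham 3 (0.088), with 7 reference genes (0.10) and in the 6 samples alone (0.12), and that of *Ccr2* with TMM (0.071) and in the 6 samples alone (0.064).

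The CXC list split by role. All 4 tested ligands were higher and all 4 tested receptors were lower. The filter takes a mean over all samples, so ligands low in Sham could pass through the injured groups. Of the ligands below it, *Cxcl1* and *Cxcl3* were called higher with no filter, and *Cxcl11* and *Cxcl15* were not called. *Cxcl12*, the stromal factor that retains leukocytes, had 72.1, 142 and 141 scaled counts in Sham and 749.8, 1028 and 1043 in RCI (log2FC 3.0 ± 0.49, edgeR adjusted p 0.00011), and its receptor *Cxcr4* had 2413, 2651 and 3373 in Sham and 103, 165 and 144 in RCI (log2FC -4.36 ± 0.29, edgeR adjusted p 6.1e-08). In the follicular pair, *Cxcl13*, which draws B cells into follicles, had 15.7, 46.5 and 45.3 in Sham and 106, 85.1 and 386 in RCI, and its receptor *Cxcr5* had 871, 220.5 and 489 in Sham and 29.6, 34.8 and 27.4 in RCI. The receptor fell 17.4-fold (edgeR adjusted p 1.6e-06), and the ligand rose 5.52-fold (0.0062), a call lost without RCI 3 (log2FC 1.45 against 2.46, edgeR adjusted p 0.054). The interferon-inducible ligand *Cxcl9* had 19.9, 44.1 and 16.1 in Sham and 214, 108 and 44.8 in RCI. *Cxcl10*, induced likewise, had 21.5, 31.8 and 15.4 in Sham and 56.5, 59.9 and 137 in RCI. Thus RCI 3 was the lowest RCI sample for the former and the highest for the latter. Both rose (2.29 and 1.95, edgeR adjusted p 0.00094 and 0.0032), while their receptor *Cxcr3* fell by 1.60 (0.00072). Without RCI 1 the log2FC of *Cxcl9* was 1.60.

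Interleukin-1 family genes moved in both directions, 6 of 17 higher, 4 lower and 7 not called (median 0.53, and -0.13 without RCI 3). *Il18*, which macrophages store as a precursor for release by inflammasomes, had 167, 265 and 287 scaled counts in Sham and 2378, 2881 and 2555 in RCI, 10.9-fold higher (log2FC 3.44 ± 0.24, edgeR adjusted p 9.7e-08). The RCI samples lay close together and far above each Sham sample. Both chains of its receptor fell, *Il18r1* by 2.53 and *Il18rap* by 2.91 on the log2 scale, with Sham 2 the highest sample for each (without it the falls were 1.49 and 1.59 and still called). *Il1a* had 10.8, 26.9 and 34.6 in Sham and 153, 222 and 1634 in RCI (log2FC 4.81 ± 0.86, edgeR adjusted p 0.00021), and without RCI 3 the log2FC was 2.97 (0.00018). *Il1b* had 58, 345 and 89.8 in Sham and 74.4, 77.9 and 925 in RCI and was not called (1.18 ± 0.87, edgeR adjusted p 0.24), with RCI 1 and 2 inside the Sham range and RCI 3 above it. The log2FC of *Il1b* was -1.06 without RCI 3 (edgeR adjusted p 0.17) and 2.29 without Sham 2 (0.051). *Il1rn*, the receptor antagonist, had 14.9, 56.3 and 24.6 in Sham and 23.3, 49.1 and 342 in RCI. Its call (log2FC 2.23, edgeR adjusted p 0.028) ended without RCI 3 (0.28, 0.69), without Sham 1 (1.87, 0.10) or Sham 3 (2.09, 0.085) and in the 6 samples alone (0.086). The signalling receptor *Il1r1* rose (1.54 ± 0.34, edgeR adjusted p 0.00099) and the decoy receptor *Il1r2* fell (-2.93 ± 0.66, 0.0012).

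Of 9 Toll-like receptor and lectin genes 5 were higher, 2 were lower and 2 were not called (median 1.27). *Tlr4*, the receptor of bacterial endotoxin, had 112, 147 and 174 scaled counts in Sham and 818, 814 and 222 in RCI and rose (log2FC 2.10 ± 0.42, edgeR adjusted p 0.00055). *Ly96*, or MD-2, its partner, had 68.8, 66.1 and 117 in Sham and 444, 478 and 325 in RCI and rose (log2FC 2.29 ± 0.29, edgeR adjusted p 1.1e-05). RCI 3 was the lowest RCI sample for the pair. *Tlr8* rose 4.84-fold and *Tlr3* 3.76-fold, and *Tlr9*, which senses bacterial DNA in B cells and dendritic cells, fell 2.64-fold (edgeR adjusted p 0.00063). *Tlr2* was called higher with all samples (0.033 by edgeR, adjusted) and not without RCI 3 (0.21), Sham 1 (0.12) or Sham 3 (0.074), with 7 reference genes (0.075) or in the 6 samples alone (0.060). In the interleukin-6 and acute phase list 3 of 8 were higher, 1 was lower and 4 were not called (median 0.30). *Cebpb*, the transcription factor of the acute phase response, had 250.2, 321 and 367 in Sham and 854, 1251 and 1139.8 in RCI (log2FC 1.79 ± 0.21, edgeR adjusted p 5.5e-06). *Clu*, the chaperone clusterin, rose (1.65, edgeR adjusted p 0.010), *Lif* was called higher from low counts (0.99, 0.043, and 0.07 and not called with raw counts under 20 set to 20), *Il6ra* was called lower (-0.87, 0.023) and the other 4 tested, among them *Stat3* and *Socs3*, were not called. *Il6* was below the filter, with 9 to 11 raw counts in Sham and 17, 15 and 51 in RCI 1, 2 and 3. The log2FC of *Clu* was 2.25 without Sham 2. *Lif* also lost its call without RCI 1 (edgeR adjusted p 0.13), RCI 2 (0.0503) or Sham 3 (0.17), with 7 reference genes (0.11) and in the 6 samples alone (0.11), and *Il6ra* lost its call without RCI 3 (0.082) or Sham 2 (0.17), with TMM (0.12) and in the 6 samples alone (0.12).

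Of 14 interferon-inducible genes and nucleic acid sensors 6 were higher, 2 were lower and 6 were not called, with a median of 0.19 (0.61 with TMM). *Ifi204*, a DNA sensor of macrophages, had 44.7, 39.2 and 63 scaled counts in Sham and 1046, 1557 and 569.6 in RCI (log2FC 4.40 ± 0.35, edgeR adjusted p 3.4e-07). *Irf7*, the amplifier of type I interferon production, had 139, 208 and 119 in Sham and 897, 1022 and 402 in RCI (log2FC 2.33 ± 0.34, edgeR adjusted p 3.6e-05), and the tetherin gene *Bst2* and the RNA sensor *Ifih1* rose 4.41-fold and 4.13-fold. Among other interferon targets *Ifit2* (0.32 ± 0.48), *Irgm1* (0.02 ± 0.27) and *Irf1* (-0.44 ± 0.33) were not called. *Mx1*, an antiviral GTPase, was called lower (-1.30, edgeR adjusted p 0.024), as was the DNA-sensing adaptor *Tmem173*, or STING (-0.86, 0.014). Neither was called with TMM (0.074 and 0.090), without RCI 3 (0.088 and 0.057), without Sham 2 (0.27 and 0.058) or in the 6 samples alone (0.091 and 0.093, all adjusted p-values from edgeR).

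In the p53 and apoptosis list, *Cdkn1a*, a direct p53 target whose product p21 arrests the cell cycle, had 24, 14.7 and 68.3 scaled counts in Sham and 996, 1021 and 973 in RCI, 26.1-fold higher (log2FC 4.71 ± 0.41, edgeR adjusted p 5.3e-07). All 3 RCI samples lay within a narrow range, and the 6 raw counts in Sham 2 bring the log2FC to 4.40 when raw counts under 20 are set to 20. *Bax*, the pro-apoptotic p53 target, had 209, 610.0 and 284 in Sham and 968, 1020.0 and 912 in RCI (log2FC 1.41 ± 0.30, edgeR adjusted p 0.00080). *Trp53*, the gene of p53 itself, which is controlled mainly at the protein level, had 579, 608 and 258 in Sham and 137, 153 and 154 in RCI and fell 3.24-fold (edgeR adjusted p 9.7e-05). *Casp2* fell 3.83-fold and *Bcl2*, the survival factor of lymphocytes, fell 3.07-fold (edgeR adjusted p 3.7e-06 and 0.0034), and the death receptor *Fas*, another p53 target, was not called (-0.44 ± 0.29). In all 3 of 12 were higher, 6 were lower and 3 were not called (median -0.52). The log2FC of *Cdkn1a* was 5.6 without Sham 3, and that of *Bcl2* moved from -1.62 to -0.82 without Sham 2, still called.

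The NF-kB list changed more in its number of calls without RCI 3 than any other list. With all samples 5 of 12 members were lower and 7 were not called (median -0.53), without RCI 3 10 were lower (median -1.25), and with TMM 3 were (8 with TMM and without RCI 3). *Nfkbia*, the inhibitor IκBα and itself an NF-kB target, had 1184, 808 and 1113 scaled counts in Sham and 192, 230.1 and 543 in RCI (log2FC -1.68 ± 0.33, edgeR adjusted p 0.00049, and -2.30 without RCI 3). *Tnfaip3*, the feedback inhibitor A20, had 277, 407 and 524 in Sham and 105, 123 and 846 in RCI, so RCI 1 and 2 lay below and RCI 3 above each Sham sample. It was not called with all samples (-0.16 ± 0.63, edgeR adjusted p 0.83) and was called lower without RCI 3 (-1.82, 0.0019). *Relb*, with 591, 608 and 508 in Sham and 240.4, 223 and 715 in RCI, and *Nfkb2*, with 909, 992 and 425 in Sham and 364, 326 and 1041 in RCI, both subunits of the non-canonical pathway, followed the same pattern. *Rela*, the main canonical subunit, did not. It had 592, 612 and 554 in Sham and 375, 376 and 354 in RCI, the smallest spread of any called gene with a mean of at least 100 in both groups (a coefficient of variation of at most 5.10% in either), and fell 1.59-fold (log2FC -0.67 ± 0.16, edgeR adjusted p 0.0019). It was not called with TMM (log2FC -0.21, edgeR adjusted p 0.34) or in the 6 samples alone (0.074).

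Endothelial, stromal and platelet genes included both rises and falls. Of 12 endothelial and stromal genes tested 6 were higher, 2 were lower and 4 were not called (median 1.43). *Cdh5*, low in Sham, passed the filter, a mean over all samples, through the injured groups, so the count of rises is in part set by it. Of the members below the filter, *Sele* and *Pdgfrb* were called higher with no filter, and *Ncam1* was not called. *Pdgfrb* had 11, 12 and 65 raw counts in RCI 1, 2 and 3. *Pdgfb*, a growth factor of endothelium, platelets and macrophages, had 38.1, 100.5 and 31.5 scaled counts in Sham and 375, 384 and 465 in RCI (log2FC 2.93 ± 0.36, edgeR adjusted p 9.2e-06). The chemokine *Ccl19* of T zone stroma rose 5.26-fold (edgeR adjusted p 0.0024) and the endothelial cadherin *Cdh5* 3.13-fold from 11 to 17 raw counts in Sham (0.0028), while *Pecam1*, also endothelial, had 917, 2345 and 1473 in Sham and 1338, 1608 and 871 in RCI and was not called (-0.31 ± 0.33, edgeR adjusted p 0.42). *Icam2*, an adhesion molecule of endothelium and lymphocytes, fell 4.90-fold (edgeR adjusted p 3.7e-06). *Vcam1*, of vessels and red pulp macrophages, had 1347, 412 and 1266 in Sham and 4171, 4166 and 399.6 in RCI, and was called higher without RCI 3 (2.04, edgeR adjusted p 0.0017) but not with it (1.53, 0.056). *Gp1bb*, a chain of the platelet receptor for von Willebrand factor, had 18.2, 36.7 and 23 in Sham and 155, 204 and 102 in RCI (log2FC 2.62 ± 0.47, edgeR adjusted p 0.00022). *Itga2b*, the platelet integrin chain, had 100.2, 379.7 and 221 in Sham and 660.1, 654 and 284 in RCI (log2FC 1.21 ± 0.51, edgeR adjusted p 0.046), with Sham 2 above RCI 3. That call ended without RCI 1 (edgeR adjusted p 0.12), RCI 2 (0.12), Sham 1 (0.16) or Sham 3 (0.10), with 7 reference genes (0.11) and in the 6 samples alone (0.089). Without Sham 2 the log2FC of *Pdgfb* was 3.55, and with raw counts under 20 set to 20 *Cdh5* was not called (0.98). The erythroid and stem cell factor *Tal1* was not called (0.36 ± 0.48), and *Tfrc*, the transferrin receptor of dividing and erythroid cells, fell 4.55-fold (edgeR adjusted p 1.8e-05), with 4 of the 9 genes of that list higher, 3 lower and 2 not called (median 0.36).

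Of 10 genes of the TGF-β pathway and its matrix targets 4 were higher, 4 lower and 2 not called (median -0.13). The ligand and matrix genes rose, *Tgfb1* from 1579.6, 1076 and 995 scaled counts in Sham to 2517, 2419.9 and 1853 in RCI (log2FC 0.89 ± 0.25, edgeR adjusted p 0.0056) and *Tgfbi* by 1.33 (0.0079), while the receptor *Tgfbr2* (-0.93) and the transducer *Smad3* (-0.97) fell, both calls that were lost with TMM (edgeR adjusted p 0.077 and 0.11). *Tgfbr2* was also not called without Sham 2 (0.055) or in the 6 samples alone (0.067). *Plau*, the urokinase protease, and its receptor *Plaur* moved apart. Being low in Sham, *Plau* passed the filter, a mean over all samples, through the injured groups. *Plau* had 7.45, 2.45 and 10.8 in Sham, 1 to 14 raw counts, and 63.7, 52.7 and 28.5 in RCI (log2FC 2.62, or 0.95 and not called with raw counts under 20 set to 20), and *Plaur* had 495, 916 and 458 in Sham and 67.3, 85.1 and 128 in RCI (log2FC -2.73 ± 0.36, edgeR adjusted p 1.8e-05).

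A further 168 tested genes are in no list, and 36 of them were higher, 77 lower and 55 not called. The examples here were chosen after their values were seen. The chemokine receptors *Ccr6* and *Ccr9* fell by 3.26 and 3.30 on the log2 scale, and the costimulatory genes *Icosl* and *Cd40* by 3.64 and 3.19. *Cd86* and *Cd80*, the ligands of CD28 and CTLA-4, were higher (2.02 ± 0.38 and 1.80 ± 0.30, edgeR adjusted p 0.00030 and 0.00011) while *Cd28* and *Ctla4* fell. *Lilrb4*, an inhibitory receptor of myeloid cells, had 49.7, 318 and 174 scaled counts in Sham and 1392, 1963 and 1938 in RCI (log2FC 3.32 ± 0.50, edgeR adjusted p 5.1e-05, and 3.98 without Sham 2). *Hfe*, the iron regulator, had 242, 171 and 318 in Sham and 1986, 2126 and 836 in RCI (log2FC 2.75 ± 0.43, edgeR adjusted p 6.7e-05). *Psmc2*, which encodes a subunit of the proteasome, had 625, 710.5 and 649.7 in Sham and 1266, 1263 and 1361 in RCI and rose 1.96-fold (edgeR adjusted p 0.00017), with a coefficient of variation of at most 6.68% in either group.

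Further genes set RCI 3 apart from RCI 1 and 2. With 1 sample against 2 there is no test, and the values are a description. Farthest above the mean of RCI 1 and 2 were *Il1b* (12.1-fold), *Il1rn* (9.44-fold), *Ccl2* (8.77-fold), *Il1a* (8.71-fold), *Irak3* (7.67-fold), *Tnfaip3* (7.41-fold), *Ccl3* (7.02-fold) and *Marco* (7.01-fold), genes that myeloid cells switch on in response to bacterial products or interleukin-1. *Tnf* followed, with 49.7, 36.7 and 13.8 scaled counts in Sham and 43, 47.9 and 241 in RCI (log2FC 1.75, edgeR adjusted p 0.021, and 0.46 and not called without RCI 3, 0.39). That call also ended without Sham 3 (0.085) and in the 6 samples alone (0.083). Below the filter, *Ccl7* had 19, 16 and 140 raw counts in RCI 1, 2 and 3, *Ccl4* had 16, 9 and 76 and *Cxcl1*, a neutrophil attractant, had 9, 9 and 74, so these genes showed the same order. The integrin chain *Itgam*, or CD11b, of neutrophils and monocytes, had 40.6, 292 and 181 in Sham and 136, 132 and 877 in RCI. It was not called, and its log2FC was -0.32 without RCI 3 and 1.79 without Sham 2. Of other neutrophil genes, *Csf3r* was also higher in RCI 3, while *S100a8*, *S100a9* and *Camp* were not above the mean of RCI 1 and 2.

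Lowest in RCI 3 relative to RCI 1 and 2 were *Ccl24* (23.7-fold), *Vcam1* (10.4-fold), *Ccr3* (10.2-fold), *Cd163* (9.31-fold), *C6* (7.73-fold) and *Fcgrt* (5.56-fold), followed by *Entpd1*, *Cd1d1*, *Il15* and *Ifit2*. *Vcam1* and *Cd163* are genes of resident red pulp macrophages. With the reference scaling both were below each Sham sample in RCI 3, while *C6* was inside the Sham range. TMM gives RCI 3 a smaller and Sham 2 a larger size factor, so the order of these samples depends on the scaling. Other macrophage genes divided. *Emr1* (4454, 4241 and 4257 in RCI 1, 2 and 3), *Msr1* (656, 1010.4 and 998) and *Il18* (2378, 2881 and 2555) were as high in RCI 3 as in the others. *Fcgr1*, *Pparg*, *C1qa* and *C1qb*, whose counts are given above, were lower in RCI 3 than in RCI 1 and 2. The summed scaled counts of the B cell list were 3884, 3795 and 2270 in RCI 1, 2 and 3 against 18860 to 21956 in Sham, and those of the T cell list were 5616, 6010 and 3627 against 20215 to 39827, so RCI 3 was the lowest for both. Leaving RCI 3 out ended 20 calls, 7 higher and 13 lower, and added 24, 15 higher and 9 lower. The calls that shrank most in size without it were *Il1rn*, *Ccl2*, *Il1a*, *Marco* and *Ccl12*, and of these *Il1rn* alone was no longer called.

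**Figure D3:**
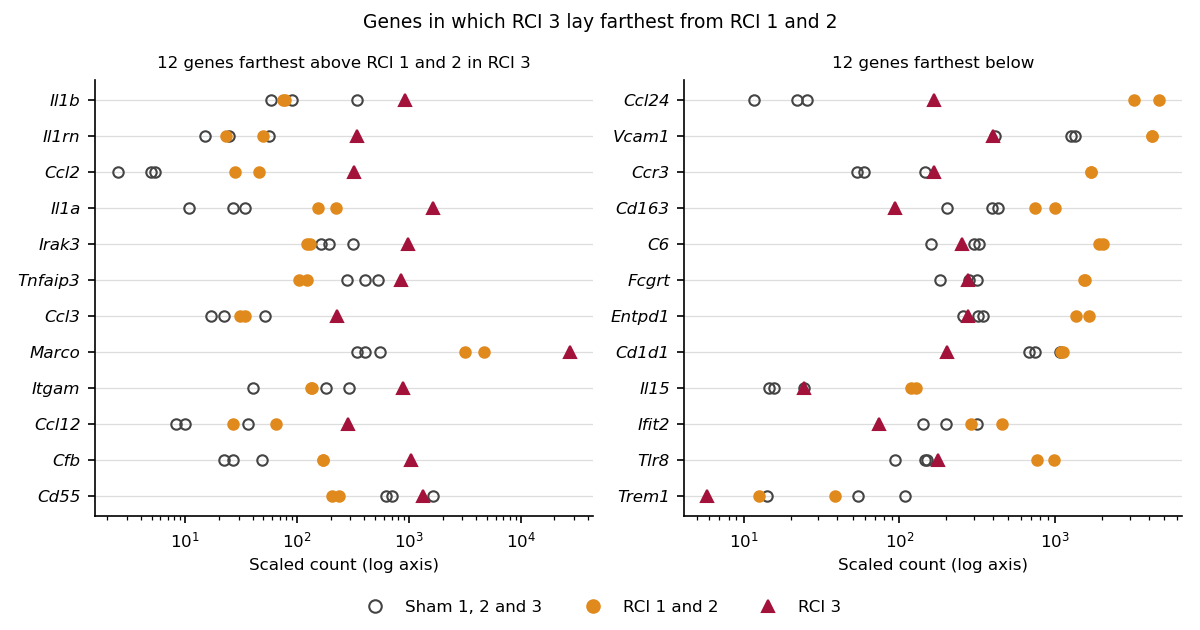
Scaled counts (log axis) in each sample for the 12 tested genes farthest above and the 12 farthest below the mean of RCI 1 and 2 in RCI 3 (triangle). On the left RCI 3 lies above RCI 1 and 2 by 6.05-fold (*Cd55*) to 12.1-fold (*Il1b*), and on the right it lies among the Sham samples for *C6*, *Fcgrt* and *Entpd1*.

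**Figure D4:**
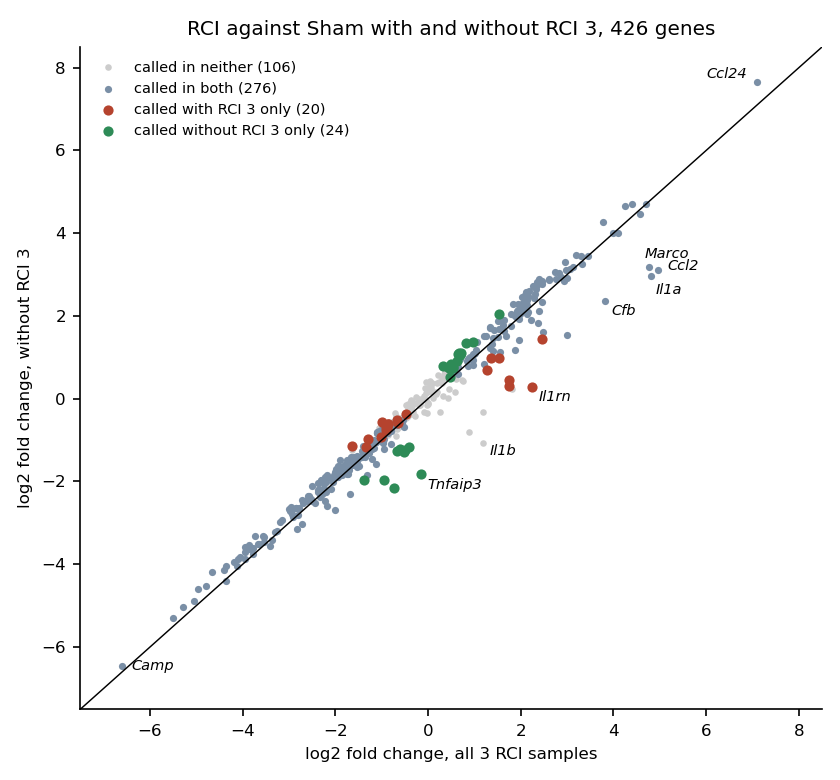
Log2 fold change of RCI against Sham for the 426 tested genes with all 3 RCI samples (horizontal) and without RCI 3 (vertical), with the diagonal drawn. Most of the 276 genes called both ways lie near the diagonal, and *Ccl2*, *Il1a*, *Marco*, *Cfb* and *Il1rn* lie below it.

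The complement and macrophage lists had the highest medians and the B cell and class II lists the lowest with either scaling and without RCI 3, while lists in the middle moved. With TMM each list median was higher, by 0.27 to 0.62 on the log2 scale. The medians of the NF-kB, MHC class I and lymphocyte cytokine receptor lists changed sign with TMM, as did that of the TGF-β list, and those of the IL-1, CXC and TGF-β lists changed sign without RCI 3.

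**Figure D5:**
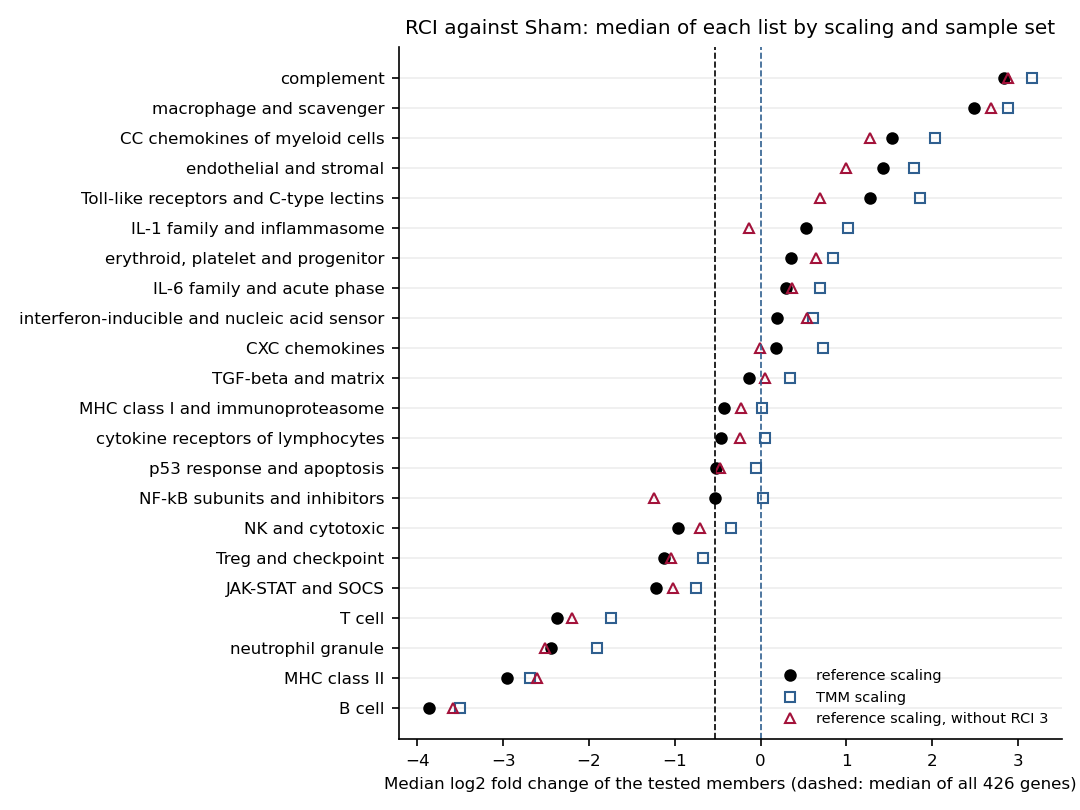
Median log2 fold change of the tested members of each list with scaling to the reference genes (filled circles), with TMM scaling (squares) and with reference scaling without RCI 3 (triangles). Dashed lines mark the median of all 426 genes, -0.53 with reference scaling (black) and 0.01 with TMM (blue), and the complement, macrophage, B cell, class II, neutrophil and T cell lists lie far from both lines under each setting.

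The RCI group carries burn and radiation together. To see where they differed from radiation alone, RCI was set against the 3 samples given 9 Gy without a burn (WBIR), for which the labels name no vehicle. For the burn model the methods give anaesthesia, shaving, morphine and resuscitation fluid, and for radiation alone they describe none of these. Burn and this handling cannot be told apart here. edgeR called 3 of 426 genes (0.704%), each higher in RCI, and 71 genes had an unadjusted p under 0.05. For all other genes a difference between the injuries was not detected, which does not show that they act alike. *Ccl9*, a macrophage chemokine, had 87, 105 and 223 scaled counts in Sham, 232, 398 and 896 in RCI and a mean of 30.9 in WBIR. *Il1r1* had means of 22.4 in Sham, 65.7 in RCI and 15.3 in WBIR, and *C4a* had 36.1, 639.9 and 217. For *Ccl9* the WBIR mean lay below the Sham mean and the RCI mean above it, whereas for *C4a* both injuries lay above Sham. The log2 differences of RCI minus WBIR were 4.04 ± 0.56 for *Ccl9* (edgeR adjusted p 0.0019), 2.11 ± 0.35 for *Il1r1* (0.0061) and 1.56 ± 0.30 for *C4a* (0.019). *Ccl9* was called under each alternative except the fit of these 6 samples alone (edgeR adjusted p 0.063), with a log2 difference of 3.35 without RCI 3. The calls of *Il1r1* and *C4a* ended under TMM (0.062 and 0.063), with median-of-ratios scaling (0.059 for each), in the 6 samples alone (0.081 and 0.063) or without WBIR 3 (0.073 and 0.081). *C4a* was not called either without WBIR 2 (0.16), with 7 reference genes (0.10) or with the replicate block (0.054), nor *Il1r1* with raw counts under 20 set to 20 (0.10).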

How the data were processed

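The deposited values were raw counts per gene. The authors lysed red blood cells in spleen suspensions, extracted RNA, hybridised it to the nCounter Mouse Immunology Panel and normalised in nSolver, but the table used here holds counts before that step, per the labels and the values. No value is below 1, so an absent barcode may be stored as a small count. Amplification is not part of the assay. Every column was matched to a sample by its title, leaving 0 columns unused.

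Counts were scaled by the geometric mean of the 14 reference genes, genes with a mean count under 20 over the 15 samples were left out, and the 5 groups were fitted together with the quasi-likelihood test of edgeR 4.0.16 in R 4.3.3 (common dispersion 0.110, a coefficient of variation of 33.1%, 10 residual degrees of freedom). Calls required an adjusted p under 0.05 (Benjamini-Hochberg over the 426 tested genes). The code was tested on simulated data. Alternatives were TMM, median-of-ratios and 7-reference-gene scaling, DESeq2 1.42.0, limma 3.58.1 on log2(scaled count + 10), other filters, a floor of 20 raw counts, a fit of the 6 samples alone, a replicate block, each sample left out in turn, TMM without RCI 3, and, chosen after the data were seen, RCI 3 and Sham 2 left out together.

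The members, gene lists and tests were chosen with earlier results of these data known. Named genes were the 10 largest rises and falls, the 5 genes whose change shrank most without RCI 3, the 5 called genes with the least spread, and examples and markers of each list. The largest rises and falls had to be called with the reference genes, with TMM, and with the reference genes without RCI 3, and to show no overlap. Genes named outside this rule are said to be so where they carry a comparison. Of the 547 symbols, 531 were current in RefSeq, 14 were older symbols and 2 were not matched. Symbols are printed as in the table. Some tested genes that enter the counts are not reported here by name. The number of counts limits the precision of genes near 20 counts, and the 179472 total counts of Sham 2 make it the least precise sample.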

Additional observations from a re-analysis of the deposited data

Results flagged for a closer look

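edgeR's test of the difference between radiation with burn and radiation alone called 3 genes. The log2 difference of RCI minus WBIR was 4.04 for *Ccl9*, 2.11 for *Il1r1* and 1.56 for *C4a*. With TMM or median-of-ratios scaling *Ccl9* alone was called, and in a fit of the 6 samples alone none of the 3 was, with edgeR adjusted p-values of 0.063 to 0.081. RCI 3 had the highest scaled count of the RCI samples for each of the 3. Without RCI 3 the differences were 3.35 for *Ccl9*, 1.68 for *Il1r1* and 1.48 for *C4a*, each still called.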

How the results depend on the processing

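The number of genes called between RCI and Sham lay between 254 (the 6 samples fitted alone) and 310 (no filter on low counts) over all alternatives, and between 284 and 300 when 1 sample was left out. Labels gave RCI and Sham the same replicate numbers, but same-numbered samples did not deviate together (correlations of 0.249, -0.133 and -0.0615), so the numbers were not taken as pairs. With the replicate block 291 genes were called. Scaling set the split, with 102 higher and 202 lower by 7 reference genes. Between RCI and WBIR 3 genes were called, 1 with TMM and 1 with median-of-ratios scaling, 2 with 7 reference genes, 2 with TMM without RCI 3, 2 with the floor of 20, 2 with the replicate block, 28 with DESeq2, and 0 with edgeR in the 6 samples alone, where 73 had an unadjusted p under 0.05. Leaving out 1 sample gave 1 to 15 calls, the most without RCI 1, 8 without WBIR 1 and 1 without WBIR 3. *Pecam1*, not called at -0.31, changed sign to 0.20 with TMM, 0.22 with median-of-ratios scaling, 0.09 without Sham 2 (-0.58 to 0.09 with 1 sample left out), 0.30 with TMM without RCI 3 and 0.30 without RCI 3 and Sham 2. The cause was not tested. The genes named by the rule stated in the methods were also counted as pairs of a gene and an alternative. Apart from these values of *Pecam1*, 1609 pairs kept their sign and their side of the threshold, 75 lost the call and 2 gained one. Outside that rule *Csf3r* and *Gzma*, not called, also changed sign without Sham 2 (0.32 and 0.22). Other genes outside it, for example *Il1b*, *Itgam* and *Irak3*, not called, changed sign from higher to lower without RCI 3 (-1.06, -0.32 and -0.81). Genes with few raw counts in Sham have a fold change that depends on the floor.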
